A study of Mus musculus with 4 samples.

Results

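The Hox genes encode transcription factors with a homeodomain, a DNA-binding fold, and lie in 4 clusters named Hoxa, Hoxb, Hoxc and Hoxd. Within a cluster the genes are numbered by position, and genes of the same number in different clusters form a paralog group. Low numbers are generally active toward the head and high numbers toward the tail of the embryo, and many adult mesenchymal tissues keep the set of Hox genes of the level where they formed. In the urogenital system the genes of paralog group 11 are needed for the kidney to form, and those of group 13 pattern the lower end of the tract.

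All probe sets whose annotation names a single Hox gene of these clusters were taken, which gave 37 genes among 19296 genes measured. Hoxa held 10 of them, and Hoxb, Hoxc and Hoxd held 9 each. Where a gene has several probe sets the brightest over the 4 arrays is used, but each of the 37 had 1 probe set. The members were thus chosen by symbol, and none was selected on its brightness, the only measured value the rule names. Hoxb8 shares its probe set with Hoxb7 and is described only as that shared probe set.

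The samples were ureters of male mice of a mixed 129Sv/C57BL6 strain. The 2 wild type mice (miR-143/145+/+) were 4.5 months old with normal kidneys. The 2 knockout mice (miR-143/145-/-) carried a deletion of miR-143 and miR-145, were 2.5 months old and had hydronephrosis, a kidney swollen by retained urine. Genotype, age and kidney state cannot be told apart in any difference below.

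Values are log2 expression values, on which a step of 1 is a doubling of the signal. A background level of 6.58 was taken from olfactory receptor genes. The array medians lay between 7.81 and 7.89, and 13501 to 14212 genes lay above background on an array. The deleted microRNA genes matched the labels: Mir145a measured 8.28 and 8.42 in wild type mice and 4.60 and 5.02 in knockout, and Mir143 measured 7.64 and 7.85 against 6.48 and 6.53. Markers of the ureter wall were bright, with the mean of 10 smooth muscle markers at 11.25 to 11.56 and that of 12 urothelial markers at 11.12 to 12.08. The precision of each value is limited by there being 2 arrays per genotype. In bulk tissue, fewer cells of a type and less RNA per cell cannot be told apart.

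Of the 37 Hox genes, 30 lay above background in at least 1 genotype, as did 14208 of all 19296 genes. The 7 Hox genes that did not were Hoxb13, Hoxc11, Hoxc12, Hoxc13, Hoxd1, Hoxd12 and Hoxd13, so 6 of them belonged to groups 11 to 13. In wild type ureter, means lay above background for all 10 Hoxa genes and 8 of 9 Hoxb genes. The same held for 6 of 9 Hoxc genes, 6 of 9 Hoxd genes and 14023 of all 19296 genes. The genes above background ran from group 2 to group 13 in Hoxa, from 1 to 9 in Hoxb, from 4 to 10 in Hoxc and from 3 to 11 in Hoxd. Hoxa13 was the single member of groups 12 and 13 above background. A probe set's brightness depends on its probes as well as on the RNA, so the levels of different genes are not ranked here. With the background at the 90th percentile of the olfactory receptor genes in place of the 95th, 36 genes lay above it, and at the 99th percentile 27 did.

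**Figure D1:**
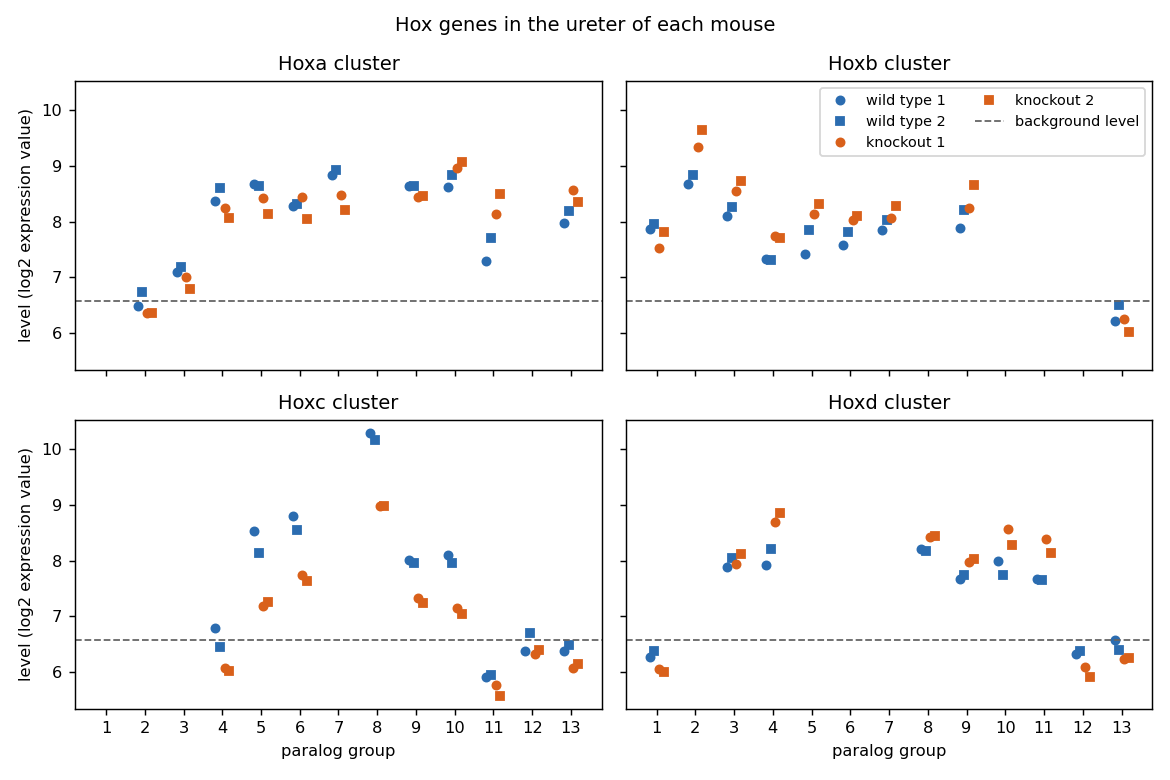
Level of each Hox gene in each mouse (y axis, log2 expression value) by paralog group (x axis), in 1 panel per cluster; blue points are the 2 wild type mice, orange points the 2 knockout mice, and the dashed line is the background level of 6.58. The knockout points lie below the wild type points for Hoxc4 to Hoxc10 and above them for Hoxb2 to Hoxb9.

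The Hoxc cluster was lower in knockout ureter. Hoxc5, Hoxc6, Hoxc8, Hoxc9 and Hoxc10 fell by 1.62-fold to 2.37-fold, and no other Hox gene passed the test (limma, adjusted p under 0.05 over all genes). Over all genes 2.38% were called, 0.477% lower and 1.90% higher in knockout, which are 92 and 367 genes. The difference was below 0 for 9 of 9 Hoxc genes, as it was for 52.9% of all genes, and their median difference was -0.70, beside -0.02 for all genes. By its fall Hoxc8 ranked 13 among the 92 genes called lower. These genes were singled out with earlier results of the same arrays known, so the pattern is a description of these 4 mice.

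Hoxc8, which helps to shape the thoracic skeleton and is also active in white fat, measured 10.28 and 10.16 in wild type mice and 8.97 and 8.98 in knockout. Both knockout mice lay more than 1 log2 unit below both wild type mice, and the mice of a genotype were close to each other. The difference was -1.25 (SE 0.12, limma adjusted p = 0.0147), a 2.37-fold fall. Hoxc10, a gene of the lumbar level that is active in hindlimb and in fat, measured 8.10 and 7.96 in wild type mice and 7.16 and 7.05 in knockout. The genotypes did not overlap, and Hoxc10 fell 1.91-fold (log2 -0.93, SE 0.12, adjusted p = 0.0274).

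Hoxc5 and Hoxc6 lie next to each other in the cluster. Hoxc5 measured 8.53 and 8.13 in wild type mice and 7.19 and 7.25 in knockout, so the wild type mice differed more from each other than the knockout mice did. It fell 2.16-fold (log2 -1.11, SE 0.16, adjusted p = 0.0319). Hoxc6 measured 8.81 and 8.54 against 7.75 and 7.64. Its knockout values were both below its wild type values, and it fell 1.97-fold (log2 -0.98, SE 0.13, adjusted p = 0.0319). Hoxc9, between Hoxc8 and Hoxc10, measured 8.01 and 7.95 against 7.33 and 7.23. This was the smallest of the 5 falls, 1.62-fold (log2 -0.70, SE 0.12, adjusted p = 0.0394), with genotypes that did not overlap.

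The ends of the cluster were dim. Hoxc4 measured 6.79 and 6.45 in wild type mice and 6.07 and 6.02 in knockout, where both values lay below background. The wild type value of 6.45 also lay below background, so no fold is given, and Hoxc4 did not pass (limma adjusted p = 0.0757). Hoxc11, Hoxc12 and Hoxc13 had values of 5.58 to 6.70 over all mice. They had differences of -0.26, -0.18 and -0.32 and did not pass. Dim genes as a whole read lower in knockout, with a median difference of -0.12 over the 5088 genes below background in both genotypes, and 3744 of these were below 0. The 7 dim Hox genes had differences between -0.35 and -0.18.

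The genes at the sides of the Hoxc cluster differed little between genotypes. Of the listed genes on chromosome 15, which carries the cluster, Calcoco1, Smug1, Cbx5, Copz1, Nckap1l and Atp5g2 had differences between -0.04 and 0.03 (lowest adjusted p = 0.867). Smug1 lay below background on average in both genotypes. For Atp5g2 the brightest of 3 probe sets was used, and whether it reads the locus on chromosome 15 was not checked. Whether the differences of the Hoxc genes and of these flanking genes differ from each other was not tested.

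The 5 calls depended on both wild type mice. They were kept with a further quantile normalization, with arrays centred on their medians, with array weights and without knockout replicate 1. Without knockout replicate 2 the call of Hoxc9 was lost (adjusted p = 0.0606). Without wild type replicate 1 or wild type replicate 2, limma passed 0 genes of the whole array, while 4253 and 3079 had an unadjusted p under 0.05. The 5 differences then lay between -1.18 and -0.67 and between -1.31 and -0.73, with adjusted p of 0.183 and 0.200 to 0.216. With the arrays centred, 245 genes were called higher and 148 lower in place of 367 and 92.

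**Figure D2:**
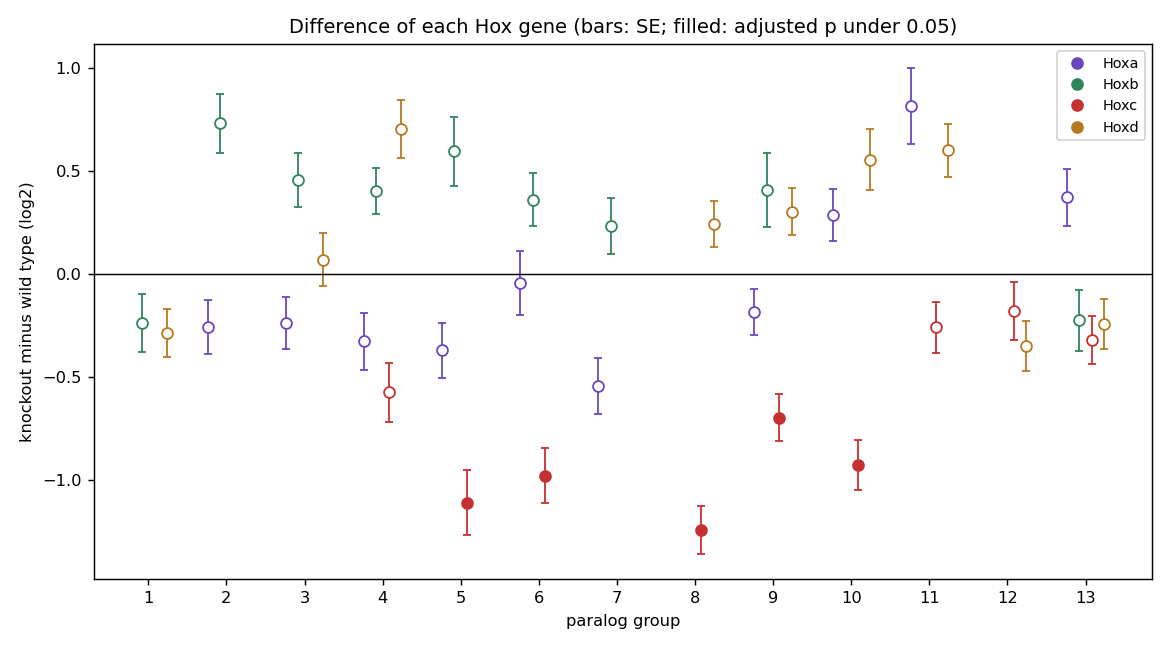
Difference between knockout and wild type means (y axis, log2) of each Hox gene by paralog group (x axis), coloured by cluster; bars are the moderated SE and filled points have a limma adjusted p under 0.05. The 5 filled points are Hoxc genes between -1.25 and -0.70, while 7 of 9 Hoxb genes and 6 of 9 Hoxd genes lie above 0.

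The Hoxb cluster read higher in knockout ureter without a member passing the test. The difference was above 0 for 7 of 9 genes, beside 47.1% of all genes, and both knockout mice lay above both wild type mice for the same 7, which are Hoxb2 to Hoxb9. Over all genes 28.0% had both knockout mice above and 32.0% had both below. The median difference of the 9 genes was 0.40. At an unadjusted p under 0.05, 5 were higher and 0 lower, and over all genes 12.7% were higher and 13.8% lower at that level.

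Hoxb2, which patterns the hindbrain in the embryo, measured 8.68 and 8.83 in wild type mice and 9.33 and 9.63 in knockout. The genotypes were apart by 0.73 on average (SE 0.14), 1.66-fold, at an adjusted p of 0.0521. With only genes above background tested, Hoxb2 passed (adjusted p = 0.0448), as it did with an intensity trend (0.0459), with robust eBayes (0.0359) and without knockout replicate 1 (0.00735). It did not pass with a further quantile normalization (0.0758), with centred arrays (0.0533), with array weights (0.0543) or without knockout replicate 2 (0.0925). Hoxb5, which acts in gut, lung and vessel development, measured 7.41 and 7.84 against 8.13 and 8.31. Its wild type mice were far apart and its difference was 0.59 (SE 0.17, adjusted p = 0.0919; 0.0476 without knockout replicate 1 and 0.188 without knockout replicate 2).

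Hoxb4, known for its role in blood stem cells, measured 7.33 and 7.31 in wild type mice and 7.74 and 7.71 in knockout. The mice of a genotype were nearly equal, and the difference was 0.40 (SE 0.11, adjusted p = 0.0909). Hoxb3, its neighbour, measured 8.10 and 8.27 against 8.54 and 8.73, a difference of 0.45 (SE 0.13, adjusted p = 0.0950). Both genes had higher values in both knockout mice.

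Hoxb6, Hoxb7 and Hoxb9 had smaller separations. Hoxb6 measured 7.58 and 7.82 in wild type mice and 8.02 and 8.10 in knockout. Hoxb7, whose promoter is active in the Wolffian duct and ureteric bud and is widely used to drive transgenes there, measured 7.84 and 8.04 against 8.07 and 8.28. Hoxb9 measured 7.88 and 8.22 against 8.25 and 8.65. In the last 2 genes the highest wild type value lay just below the lowest knockout value. The probe set that the annotation gives to Hoxb8 and Hoxb7 together measured 8.61 and 8.53 in wild type mice and 9.25 and 9.54 in knockout, a difference of 0.83, and its signal cannot be assigned to either gene.

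The genes at both ends of Hoxb had differences below 0, and neither passed. Hoxb1, the gene of hindbrain segment identity, measured 7.86 and 7.95 in wild type mice and 7.52 and 7.82 in knockout, lower in both knockout mice without passing (difference -0.24, adjusted p = 0.309). Hoxb13, a gene of prostate and tail, was below background in all 4 mice and overlapped between genotypes, at 6.21 and 6.51 in wild type mice and 6.25 and 6.02 in knockout (adjusted p = 0.367). The 9 markers of male accessory glands were also below background, with means of 4.97 to 5.34.

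The Hoxd cluster was divided by level. Its 6 genes above background had differences above 0, and the 3 dim genes Hoxd1, Hoxd12 and Hoxd13 had differences of -0.29, -0.35 and -0.24, with values of 5.92 to 6.58. No Hoxd gene passed in limma. By unadjusted p under 0.05, 4 were higher and 2 lower, beside 12.7% and 13.8% of all genes. The 2 lower genes were the dim Hoxd1 and Hoxd12, and 773 of the 5088 dim genes were lower at that level. The median over the 9 genes was 0.24, and it was 0.14 with a further quantile normalization.

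Hoxd4 measured 7.92 and 8.21 in wild type mice and 8.69 and 8.85 in knockout. Both knockout mice were higher, by 0.70 on average (SE 0.14, adjusted p = 0.0553), and the gene passed with only genes above background tested (adjusted p = 0.0475), with robust eBayes (0.0382) and without knockout replicate 1 (0.0185). It did not pass with a further quantile normalization (0.0783), with centred arrays (0.0542) or without knockout replicate 2 (0.0881). Hoxd11, needed with its paralogs for kidney induction, measured 7.66 in both wild type mice and 8.38 and 8.14 in knockout. The difference was 0.60 (SE 0.13, adjusted p = 0.0587), and it passed with robust eBayes (0.0446) and without knockout replicate 2 (0.0385), but not without knockout replicate 1 (0.101) or with a further quantile normalization (0.0811).

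Hoxd10, a gene of hindlimb and lumbar motor neurons, measured 7.99 and 7.75 in wild type mice and 8.56 and 8.28 in knockout. The difference was 0.55 (SE 0.15, adjusted p = 0.0852), with genotypes that did not overlap. Hoxd9 measured 7.66 and 7.74 against 7.97 and 8.04, and Hoxd8 measured 8.21 and 8.17 against 8.42 and 8.45. Both were slightly higher in both knockout mice and did not pass (adjusted p = 0.156 and 0.221). Hoxd3 overlapped between genotypes at 7.89 and 8.04 against 7.94 and 8.12. Its difference of 0.07 (SE 0.13, 95% interval -0.23 to 0.37) changed sign after a further quantile normalization, without wild type replicate 1 and without knockout replicate 2.

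The Hoxa cluster was divided by position. The 7 genes from Hoxa2 to Hoxa9 had differences below 0, with a median of -0.26, though that of Hoxa6 turned above 0 without knockout replicate 2. The 3 genes Hoxa10, Hoxa11 and Hoxa13 had differences above 0, with a median of 0.37. The boundary between these stretches was noticed in the values, and no Hoxa gene passed in limma. At an unadjusted p under 0.05, 2 Hoxa genes were higher and 3 lower, beside 12.7% and 13.8% of all genes.

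At the high-numbered end, Hoxa11, the partner of Hoxd11 in kidney induction, measured 7.30 and 7.71 in wild type mice and 8.13 and 8.50 in knockout. Both knockout mice lay above both wild type mice, by 0.81 on average (SE 0.18, adjusted p = 0.0654). It passed with robust eBayes (0.0454) and without knockout replicate 1 (0.00740), and without knockout replicate 2 the difference was 0.63 (0.107). Hoxa13, which patterns the lower urogenital tract, measured 7.98 and 8.19 against 8.56 and 8.35, and Hoxa10, a gene of the reproductive ducts, measured 8.63 and 8.83 against 8.97 and 9.06. Both had higher values in both knockout mice and did not pass (adjusted p = 0.148 and 0.202).

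At the low-numbered end, Hoxa7 measured 8.84 and 8.93 in wild type mice and 8.48 and 8.20 in knockout. The genotypes did not overlap, and its difference of -0.55 (SE 0.14, adjusted p = 0.0750) passed without knockout replicate 1 (0.0246) and was -0.41 without knockout replicate 2 (0.216). Hoxa5, a gene of lung and neck patterning, measured 8.67 and 8.63 against 8.42 and 8.14. Hoxa4 measured 8.37 and 8.61 against 8.25 and 8.07. Both were lower in both knockout mice and did not pass (adjusted p = 0.143 and 0.185).

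Hoxa9 measured 8.64 and 8.63 against 8.44 and 8.46, a narrow but complete separation (difference -0.19, SE 0.11, adjusted p = 0.320). Hoxa6 overlapped between genotypes at 8.27 and 8.31 in wild type mice and 8.45 and 8.05 in knockout. Its difference of -0.04 was 0.16 without knockout replicate 2. Hoxa3, a gene of neck and thymus development, measured 7.09 and 7.18 against 7.00 and 6.79. Hoxa2, the selector gene of the second pharyngeal arch, lay near background at 6.49 and 6.75 in wild type and at 6.36 in both knockout mice. The wild type value of 6.49 and both knockout values lay below background, so no fold is given, and Hoxa2 did not pass (limma adjusted p = 0.248).

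Genes of the same paralog group could thus lie on different sides of 0. In group 9 the differences were -0.70 for Hoxc9, -0.19 for Hoxa9, 0.30 for Hoxd9 and 0.41 for Hoxb9. In group 10 they were -0.93 for Hoxc10, 0.29 for Hoxa10 and 0.55 for Hoxd10. In group 5 they were -1.11 for Hoxc5, -0.37 for Hoxa5 and 0.59 for Hoxb5. In groups 5, 6, 8, 9 and 10 the single called member was the Hoxc gene. Whether paralogs differ from each other in their response was not tested, since no member was chosen without knowledge of these values.

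Group 4 has a member in each cluster, at -0.33 for Hoxa4, 0.40 for Hoxb4, -0.58 for Hoxc4 and 0.70 for Hoxd4, and none passed. The 250 bases before the annotated start of those 3 members that the promoter table holds are shown because these genes share a paralog group and lay on opposite sides of 0. They come from RefSeq (GRCm38.p6). The promoter table held only 21 of the 37 genes, with Hoxc4 as the only Hoxc gene. The table was searched on both strands for TATAAA (the TATA box), CCAAT (the CCAAT box), TAATTA (a homeodomain core), TGATTNAT (a site for Hox with Pbx) and AGGTCA (a hexamer bound by nuclear receptors such as the retinoic acid receptors), none of which contains another. Capitals mark each match, on the strand shown or its complement, and all 3 genes lie on the plus strand.
Hoxb4, chr11:96318017-96318266: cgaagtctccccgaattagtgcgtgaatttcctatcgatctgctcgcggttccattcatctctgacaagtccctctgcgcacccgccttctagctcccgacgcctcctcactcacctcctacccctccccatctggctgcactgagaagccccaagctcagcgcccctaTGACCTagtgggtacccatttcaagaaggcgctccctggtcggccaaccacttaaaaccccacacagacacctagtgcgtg
Hoxc4, chr15:103034145-103034394: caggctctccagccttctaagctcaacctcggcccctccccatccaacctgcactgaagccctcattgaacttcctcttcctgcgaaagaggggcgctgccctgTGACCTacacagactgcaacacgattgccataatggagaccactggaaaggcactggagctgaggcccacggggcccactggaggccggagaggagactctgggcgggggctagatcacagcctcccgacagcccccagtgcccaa
Hoxd4, chr2:74721728-74721977: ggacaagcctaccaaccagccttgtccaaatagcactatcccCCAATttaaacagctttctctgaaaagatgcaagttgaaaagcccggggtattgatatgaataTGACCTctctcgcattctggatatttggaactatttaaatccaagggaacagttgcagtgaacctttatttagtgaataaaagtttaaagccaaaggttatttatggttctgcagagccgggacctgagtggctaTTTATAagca

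The AGGTCA hexamer occurred once in each of these stretches, 81 bases before the start of Hoxb4, 146 before that of Hoxc4 and 145 before that of Hoxd4, counted to the first base of the match. It occurred in 6 of 23 Hox promoters and in 14.0% of the 32851 promoters of the table. The stretch before Hoxd4 also held CCAAT and, on the complementary strand, TATAAA, with first bases 208 and 10 bases before the start. It had 3 CpG dinucleotides, beside 14 for Hoxb4 and 8 for Hoxc4. The median was 13 in the 23 Hox promoters and 6 in all promoters. These are matches of letters, shared by genes whose differences had opposite signs, and the arrays do not measure binding.

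The clusters also hold RNA genes, of which 7 of 13 listed were measured. Mir10a, between Hoxb5 and Hoxb4, and Mir10b, within the span of Hoxd4, encode microRNAs of 1 seed family, and the miR-196 genes lie beside Hoxa9, Hoxb9 and Hoxc9. MiR-196 is known to direct cleavage of the Hoxb8 messenger. The mature forms are printed because they tie the clusters to each other through shared seeds, with bases 2 to 8 in capitals (RefSeq, GRCm38.p6).
miR-10a-5p: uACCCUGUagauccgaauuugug
miR-10b-5p: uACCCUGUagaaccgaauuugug
miR-196a-5p: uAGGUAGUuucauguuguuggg
miR-196b-5p: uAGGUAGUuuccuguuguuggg
Counted from the 5′ end, miR-10b differs from miR-10a by U12A, and miR-196b differs from miR-196a by A12C. MiR-196a is encoded by both Mir196a-1 in Hoxb and Mir196a-2 in Hoxc.

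Mir10a measured 4.05 and 4.20 in wild type mice and 4.99 and 5.17 in knockout, and Mir10b measured 3.99 and 3.90 against 4.95 and 4.58. Both passed (limma adjusted p = 0.0300 and 0.0490), with both knockout mice higher, but every value lay below background, so no fold is given. The array measures precursor sequence and not the mature microRNA. Mir10b no longer passed after a further quantile normalization (0.0665), with centred arrays (0.0517) and with array weights (0.0515). Mir196a-2, beside Hoxc9, had a difference of -0.30, and Mir615, within Hoxc5, measured 8.34 and 8.52 in wild type mice and 7.98 and 8.10 in knockout (difference -0.40, adjusted p = 0.113). Mir196a-1 in Hoxb and Mir196b in Hoxa had differences of 0.07 and 0.17 and overlapped between genotypes.

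Hox proteins bind DNA together with homeodomain cofactors of the Pbx, Meis and Pknox families. Of 8 measured cofactors 1 rose, 0 fell and 7 did not pass, and the median difference was 0.22. Over all genes 1.90% were called higher. Pknox2 measured 6.93 and 7.31 in wild type mice and 7.89 and 8.10 in knockout. It rose 1.83-fold (log2 0.87, SE 0.16, adjusted p = 0.0486), and this call was lost with a further quantile normalization (0.0532) and with centred arrays (0.0506). Meis1 measured 9.46 and 9.31 against 9.92 and 9.76, higher in both knockout mice without passing (adjusted p = 0.0907).

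Polycomb proteins keep Hox genes silent and Trithorax proteins keep them active. Of 19 Polycomb genes limma passed 0, with 1 higher and 0 lower by unadjusted p under 0.05, and the median difference was 0.07. The lowest p belonged to Pcgf6 (0.47, adjusted p = 0.135) and Cbx7 (0.42, adjusted p = 0.221). Ezh2, the methyltransferase of the complex, differed by 0.13 and overlapped between genotypes. Of 13 Trithorax and MLL genes limma also passed 0, with 1 higher and 1 lower by unadjusted p under 0.05 and a median of 0.10. Over all genes 12.7% were higher and 13.8% lower at that level. Dpy30 differed by -0.31 and Ash2l by 0.34 (adjusted p = 0.143 and 0.153). Geminin (Gmnn), below background on average, differed by -0.22.

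Among 14 measured partners of Hox genes in kidney and ureter development, 4 rose, beside 1.90% of all genes, and the other 10 did not pass. The median was -0.10. Tcf21, a mesenchymal transcription factor, measured 9.14 and 9.37 in wild type mice and 11.00 and 10.76 in knockout. The groups were far apart, and it rose 3.07-fold (log2 1.62, SE 0.14, adjusted p = 0.0147). Tbx18, Six4 and Osr1, transcription factors of urogenital mesenchyme, rose by 0.80, 0.81 and 0.93 (adjusted p = 0.0368, 0.0368 and 0.0489). Quantile normalization ended the calls of Tbx18 (0.0532) and Osr1 (0.0629), and centred arrays ended that of Osr1 (0.0503). Fibroblast and mesenchyme markers read higher in the same knockout mice, for 9 of 10 genes, with Lum, a matrix proteoglycan, 3.25-fold higher (log2 1.70, adjusted p = 0.0147), and their part in these 4 rises was not tested. Eya1, Six2 and Gdnf differed by -0.06, -0.22 and -0.34, none passing.

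Of the 8 related ParaHox and Evx genes, 4 lay above background and the others were dim. Their differences were below 0 for 8 of 8, beside 52.9% of all genes. Dim genes read lower as a whole, as given above, while all genes above background had a median difference of 0.03. Among the 8, limma passed 0, with 0 higher and 4 lower by unadjusted p under 0.05. Over all genes 12.7% were higher and 13.8% lower at that level. Evx2, at the end of the Hoxd cluster beside Hoxd13, differed by -0.40 and the intestinal gene Cdx1 by -0.52 (adjusted p = 0.0934 and 0.104). Both lay above background. Of all 22 measured genes flanking the 4 clusters limma passed 0, with 1 higher and 2 lower by unadjusted p under 0.05. These 3 were Nfe2l2 near Hoxd (0.43, adjusted p = 0.123), Calcoco2 near Hoxb (-0.34, adjusted p = 0.141), which lay below background in all 4 mice, and Hibadh near Hoxa (-0.37, adjusted p = 0.164). For Calcoco2 the brightest of 2 probe sets was used, and whether it reads the locus near Hoxb was not checked.

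**Figure D3:**
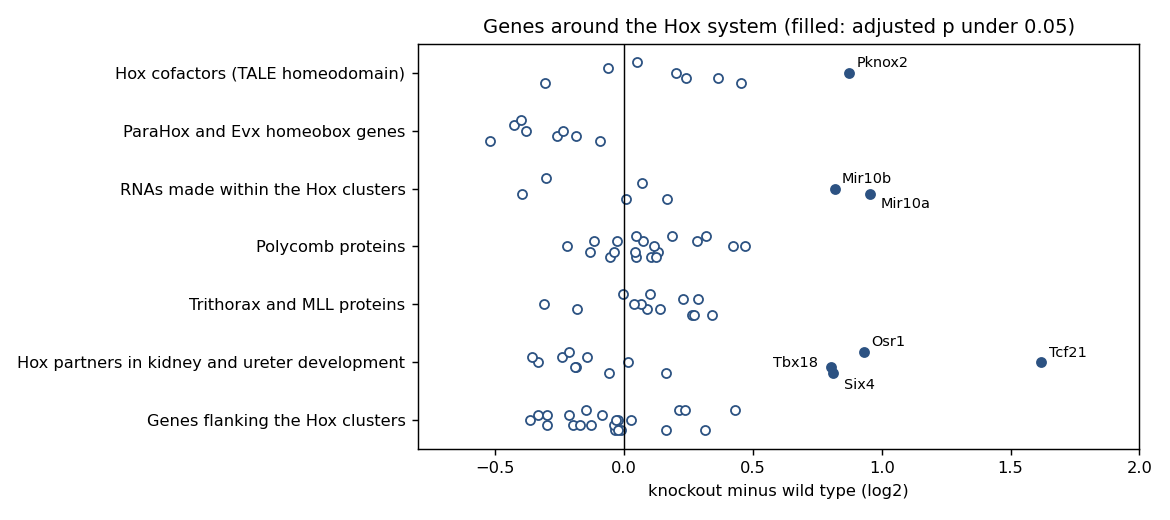
Difference between knockout and wild type means (x axis, log2) of single genes in 7 lists around the Hox system (y axis); filled and named points have a limma adjusted p under 0.05. The 7 filled points lie between 0.80 and 1.62, and the Polycomb, Trithorax, ParaHox and flanking lists hold none.

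Markers of several cell types moved beside the Hox genes. Beside the Hoxc falls, adipocyte markers were lower for 9 of 9 measured genes, with list means of 12.66 and 12.56 in wild type mice and 12.36 and 11.86 in knockout, and none passed. All 9 were above background. The adipocyte mean was lower in knockout replicate 2 than in knockout replicate 1, as were Hoxc6, Hoxc9 and Hoxc10 by about 0.1, while Hoxc5 and Hoxc8 were not. In the wild type mice the adipocyte mean and each called Hoxc gene were higher in replicate 1. With 2 mice per genotype, whether the marker mean and the Hoxc genes vary together was not tested. Lymphocyte markers were lower for 7 of 9, with means of 6.80 and 7.03 in wild type mice and 6.59 and 6.54 in knockout. Of the 9 lymphocyte markers 6 lay above background in at least 1 genotype, and Ighm, an antibody heavy chain, passed (-1.22, limma adjusted p = 0.0399). Endothelial markers were lower for 6 of 8, none passing, with means of 10.29 and 10.37 against 10.30 and 10.07. Macrophage and skeletal muscle markers were each lower for 6 of 8, and nerve and glia markers for 5 of 6, none passing. Of the 8 skeletal muscle markers 5 lay above background. Over all genes 52.9% were lower, and 0.477% were called lower.

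Beside the higher values in Hoxb, Hoxd and at the end of Hoxa, urothelial markers were higher for 12 of 12 genes, of which Trp63 and Cldn8 passed, with means of 11.12 and 11.38 in wild type mice and 11.73 and 12.08 in knockout. Fibroblast and mesenchyme markers were higher for 9 of 10, of which Lum, Col1a1 and Col1a2 passed, with means of 10.30 and 10.42 against 10.83 and 11.00. Smooth muscle markers were higher for 8 of 10, none passing, with means of 11.33 and 11.25 against 11.56 and 11.38. Over all genes 47.1% were higher, and 1.90% were called higher. Kidney markers, of which none passed, had means of 7.07 and 7.72 in wild type mice and 8.77 and 7.24 in knockout, so knockout replicate 1 stood apart. The part of any of these cell types in the Hox differences was not tested.

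**Figure D4:**
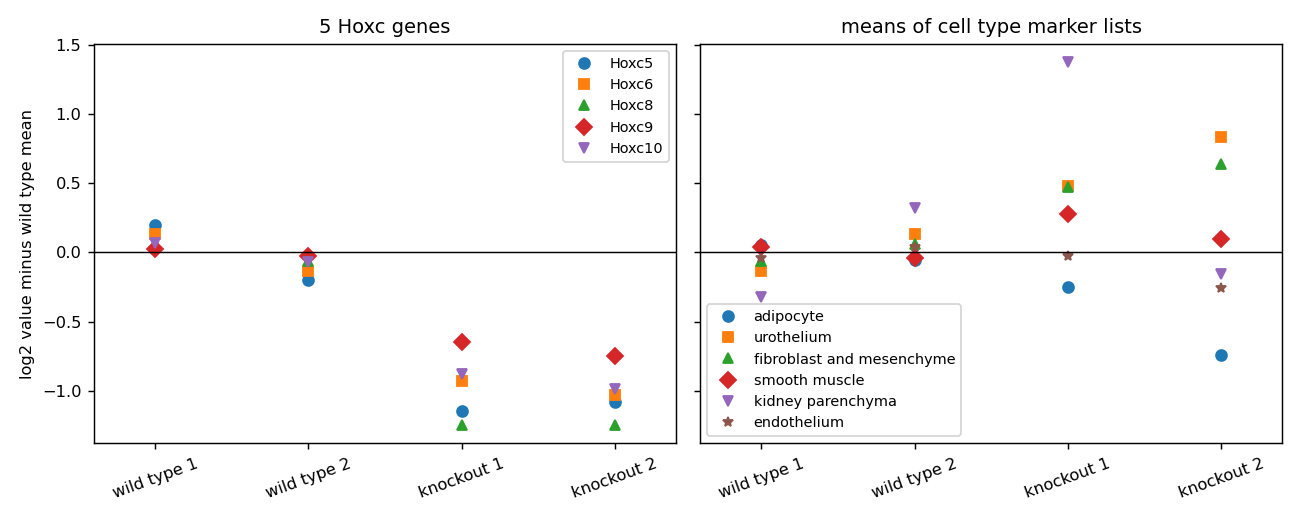
Log2 values minus the wild type mean (y axis) in each of the 4 mice (x axis), for the 5 called Hoxc genes on the left and the means of 6 cell type marker lists on the right. The 5 Hoxc genes lie below the wild type mice in both knockout mice, the adipocyte mean is lowest in knockout replicate 2, and the kidney mean is highest in knockout replicate 1.

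Per mouse, the median level of the 9 Hoxc genes was 8.01 and 7.95 in wild type mice and 7.16 and 7.05 in knockout. That of the 9 Hoxb genes was 7.84 and 7.95 against 8.07 and 8.28, and that of the 9 Hoxd genes was 7.66 and 7.74 against 7.97 and 8.12. The Hoxa median overlapped between genotypes, at 8.32 and 8.46 against 8.43 and 8.17. Over all 37 Hox genes the median difference was -0.19, with 16 above 0 and 21 below. This median was 0.15 over the 30 genes above background and -0.076 without wild type replicate 2, and all 7 dim Hox genes were below 0.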

How the data were processed

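Total RNA (500 ng per mouse) was labelled for a whole-transcript array, per the labels' protocols. The authors deposited 1 log2 value per probe set and array. The submitters' processing notes name RMA, limma 3.12.1 and R 2.15.0. RMA gives the arrays like distributions, which would mask a shift common to most genes. For the genome build, the sources used here give nothing.

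Of 23309 probe sets, 20728 had 1 symbol, 1174 several and 1407 none; the brightest per gene gave 19296 genes. The background level is the 95th percentile of 1012 olfactory receptor genes by mean value. The genotypes were compared with limma 3.58.1 (lmFit and eBayes, R 4.3.3), adjusted by Benjamini-Hochberg over all genes at a threshold of 0.05; SE is its moderated standard error. Per the labels, the mice are biological replicates. All Hox genes were named; in the other lists, genes past the threshold and the 2 of smallest p above background, plus Ezh2, Gmnn, Eya1, Six2, Gdnf and the microRNA genes, chosen after their values were seen. The members and lists were chosen with earlier results of these data known. The fit was tested on simulated data. The alternatives are in the closing section.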

Additional observations from a re-analysis of the deposited data

How the results depend on the processing

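Each of the 37 Hox genes kept its direction under all alternatives run, except 2. Hoxd3 was at -0.017 with a further quantile normalization and at -0.022 to 0.16 with a mouse left out, and Hoxa6 was at -0.25 to 0.16 with a mouse left out. The number of Hox genes called higher was 2 with only genes above background, 1 with an intensity trend and 4 with robust eBayes, in place of 0, and 0 to 4 with a mouse left out. The number called lower was 5 in each of these 3 settings and 0 to 6 with a mouse left out. Over all genes 214 were called with a further quantile normalization, 902 with robust eBayes, and 0 to 1744 with a mouse left out, in place of 459. With the replicate number as a block 1922 genes were called, 6 Hox genes higher and 7 lower. Across all genes the deviations of mice with the same number had a correlation of -0.03. With 2 mice per genotype this is the same value for both numbers, and it cannot show whether part of the genes share a batch. The labels give only a replicate number, so the main fit has no block. The median difference of Hoxc was -0.95 with only genes above background and -0.77 with centred arrays, that of Hoxd 0.43 and, with a further quantile normalization, 0.14. The median of all Hox genes was 0.15 with only genes above background, -0.10 with a further quantile normalization and -0.26 with centred arrays. With a mouse left out the medians ranged from 0.24 to 0.48 for Hoxb, from -0.75 to -0.65 for Hoxc, from 0.22 to 0.26 for Hoxd and from -0.18 to -0.076 for all Hox genes. Fewer genes were tested in the setting above background; for the other changes the cause was not tested. With 1 mouse left in a genotype, that mouse is assumed to vary like the others.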
